A study of Homo sapiens with 18 samples.

Results

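DKK1 and 9 genes of the Wnt feedback and stem cell programme were followed in tumours that human colon cancer cells formed in mice. The 10 genes were the rows whose Entrez gene ID belongs to DKK1, AXIN2, LGR5, NKD1, RNF43, ZNRF3, TCF7, NOTUM, SP5 or ASCL2, out of 25343 genes in each table. All 10 were found, each on 1 row, and 8 of them passed the filter on low counts, which left 14074 genes for testing. LGR5 and ASCL2 did not pass it.

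The tumours were xenografts of HCT116, an established colon cancer line known to carry an activating mutation of the beta-catenin gene CTNNB1, in which PTDSS2 had been knocked out (PTDSS2-KO). All 18 tumours shared that genotype, and the labels do not say whether the line was 1 clone. The groups were vehicle, DS55980254 at 10 mg/kg and DS55980254 at 30 mg/kg, with 6 libraries each. Dosing was oral, with 0.5% methylcellulose as the carrier, and the tumours were taken after 24 hours. The compound is known here by its code. The series concerns inhibition of PTDSS1, a phosphatidylserine synthase, in cells without PTDSS2. The labels do not give the age or strain of the mice, or whether each tumour came from its own mouse, so p-values measure the spread between these libraries.

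In canonical Wnt signalling, a Wnt ligand binds a Frizzled receptor and its co-receptor LRP5 or LRP6, and beta-catenin then escapes the destruction complex and activates genes together with TCF and LEF proteins. Many of those target genes encode brakes on the pathway, so their transcripts serve as a readout of its activity. DKK1 is a secreted antagonist that binds LRP5 and LRP6, and it is itself a known beta-catenin target. In the intestine the same pathway maintains the crypt stem cells, of which LGR5 and ASCL2 are defining genes.

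Counts assigned to human genes totalled 3435423 to 8538792 in 17 libraries and 433981 in 10 mg/kg replicate 2, where 1 count equalled 2.14 CPM (counts per 1000000 counts, normalised between libraries), against 0.12 to 0.289 CPM in the others. Of 8 colon epithelium markers, 5 passed the filter, among them EPCAM with a median of 379 CPM over the 18 libraries, while VIL1, LGALS4 and CDH17 had medians of 0.244, 0.356 and 0.485 CPM. The summed level of 6 fibroblast markers was 61.9 to 109 CPM with vehicle, 73.1 to 317 CPM at 10 mg/kg and 69.3 to 92.5 CPM at 30 mg/kg. Most of that sum was COL1A1, with a median of 85.5 CPM over the 18 libraries. COL3A1 and PDGFRB had medians of 2.69 and 0.684 CPM, and COL1A2, DCN and LUM of 0. For 6 endothelial markers the ranges were 9.41 to 16.7, 9.05 to 120 and 10.7 to 21.6 CPM, and for 6 leukocyte markers 11.3 to 18.7, 15.5 to 68.5 and 13.1 to 18.5 CPM, in the same order of groups. All 3 of the 10 mg/kg maxima were in replicate 2, and the next library stood at 106, 26.1 and 22.0 CPM. None of the tested markers was called in any comparison. PTDSS1 stood at 69.8 to 81.8 CPM with vehicle, 57.8 to 73.1 CPM at 10 mg/kg and 61.8 to 74.9 CPM at 30 mg/kg. Its medians were 78.1, 64.6 and 67.4 CPM in that order. PTDSS2 stood at 4.97 to 13.9 CPM over all libraries, and gene counts do not show whether the PTDSS2 transcripts carry the edit.

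The 250 bases before the start of DKK1 and of SP5 are shown because DKK1 was the gene that changed and SP5, a transcriptional repressor and beta-catenin target, was the other member whose window held the TCF/LEF letters. The sequences are from RefSeq on GRCh38.p14, both on the plus strand, at chr10:52314031-52314280 for DKK1 and chr2:170715087-170715336 for SP5. Distances count from the RefSeq start. For both genes the sequence at that start was not found in a transcript of GENCODE, another gene annotation, unlike for RNF43 and TCF7. Capitals mark the letters CTTTGA of a TCF/LEF core motif or GGAATG of a TEAD motif on either strand, and no marked letters of different motifs overlap.
DKK1: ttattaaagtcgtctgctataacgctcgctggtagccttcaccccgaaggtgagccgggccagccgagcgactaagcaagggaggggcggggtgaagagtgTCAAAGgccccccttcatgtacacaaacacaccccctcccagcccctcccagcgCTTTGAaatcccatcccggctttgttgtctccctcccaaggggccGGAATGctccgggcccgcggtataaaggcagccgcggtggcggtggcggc
SP5: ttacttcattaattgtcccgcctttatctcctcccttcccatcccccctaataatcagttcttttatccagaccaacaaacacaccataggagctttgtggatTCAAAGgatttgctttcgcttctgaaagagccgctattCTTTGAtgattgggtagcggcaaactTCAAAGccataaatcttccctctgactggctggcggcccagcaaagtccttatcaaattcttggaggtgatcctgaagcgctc
The DKK1 window held CTTTGA at 95 bases before the start, its reverse complement at 149 bases before it, and GGAATG at 50 bases before it. The SP5 window held CTTTGA at 109 bases before the start and the reverse complement at 147 and 83 bases before it. In all, 6 promoter windows were at hand for 4 of the 10 genes, RNF43 and TCF7 having 2 each. Of the 6 windows, 2 held the TCF/LEF letters, those of DKK1 and SP5, beside 11.2% of 35116 windows of the same length. GGAATG was present on either strand in 2 of the 6, those of DKK1 and of an RNF43 start, beside 11.9% of all windows. The AP-1 letters TGAGTCA were found on either strand in 1 of the 6, at an RNF43 start, and in 4.2% of all windows. A match describes letters and does not show that a factor binds there.

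DKK1 (Entrez gene 22943) fell at 10 mg/kg, and no other member did. Its lowest, median and highest library stood at 5.12, 9.78 and 11.6 CPM at 10 mg/kg, against 13.8, 21.9 and 35.2 CPM with vehicle. The groups did not overlap, all 6 libraries at 10 mg/kg lying under the lowest vehicle library. The means were 8.79 ± 2.94 CPM at 10 mg/kg and 22.8 ± 7.73 CPM with vehicle (SD, n = 6 each). The fitted level at 10 mg/kg was 0.384 of that with vehicle, with a 95% interval of 0.267 to 0.552 (log2 fold change -1.38, SE 0.254, edgeR adjusted p = 0.00817). Among 7 genes called lower at 10 mg/kg, none had a lower log2 fold change than DKK1. Fewer cells that express DKK1 and less DKK1 RNA per cell cannot be told apart in such bulk libraries.

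The background at 10 mg/kg was that 0.469% of genes tested were called in either direction, that is at an adjusted p under 0.05, with 0.0497% called lower and 0.419% called higher. DKK1 was the 1 member called of 8 tested, and it had been chosen with its fall already known, so nothing is read from that share. Groups that did not overlap were found, with 10 mg/kg the lower, for 0.469% of all genes tested, and with 10 mg/kg the higher for 0.689% of them but for no member. In 10 mg/kg replicate 2, DKK1 rested on 4 counts, or 8.56 CPM with an exact 95% Poisson interval of 2.33 to 21.9 CPM, which reaches past the lowest vehicle library and covers counting error alone. Without that library the log2 fold change was -1.38 again and the edgeR adjusted p was 0.00552. With a block for replicate number, which the labels do not say pairs the libraries, DKK1 stood at -1.37 and missed the threshold (edgeR adjusted p = 0.0553).

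At 30 mg/kg DKK1 did not pass the threshold. Its lowest, median and highest library stood at 8.74, 11.1 and 18.2 CPM, against 13.8, 21.9 and 35.2 CPM with vehicle. In 5 of 6 libraries it was under the lowest vehicle library, and replicate 3 alone, at 18.2 CPM, lay among the vehicle libraries. The means were 11.8 ± 3.35 CPM at 30 mg/kg and 22.8 ± 7.73 CPM with vehicle (SD, n = 6 each), and the fitted level was 0.513 of that with vehicle (95% interval 0.366 to 0.720, log2 fold change -0.96, SE 0.236, edgeR adjusted p = 0.0645). The call was not made in 22 of 29 alternatives. It was made in 3 of 18 fits with 1 library left out. These were without 30 mg/kg replicate 3 (edgeR adjusted p = 0.0255), without vehicle replicate 1 (0.0387) and without 10 mg/kg replicate 2 (0.0396). The call was also made by the DESeq2 Wald test (adjusted p = 0.0236), by limma-voom (0.0491) and by edgeR on the 2 groups alone (0.0289). The adjusted p ranged from 0.0236 to 0.265 over all alternatives. Of all genes tested, 0.618% were called at 30 mg/kg in either direction, 0.0497% were called lower and 0.568% higher. No member was called there, and 1 of the 8 had an unadjusted p under 0.05, against 7.9% of all genes. No member's groups were free of overlap, beside 0.476% of all genes with 30 mg/kg the lower and 1.25% with it the higher.

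The difference between the doses did not pass for DKK1. Its fitted level at 30 mg/kg was 1.34 times that at 10 mg/kg, with a 95% interval of 0.920 to 1.95 (log2 fold change 0.42, SE 0.262, edgeR adjusted p = 0.969). Of all genes tested, 0% were called between the doses in edgeR, and 3.52% had an unadjusted p under 0.05. Among the 8 tested members 3 did, namely NKD1, ZNRF3 and NOTUM. A negative log2 fold change, 30 mg/kg over 10 mg/kg, was found for 7 of the 8. The median of the 8 was -0.17, beside 0.004 over all genes tested. DESeq2 and limma-voom also called 0 genes there. The dosed groups overlapped for all members, beside 0.0782% of all genes free of overlap with 30 mg/kg the lower and 0.0568% with it the higher. Both doses are compared with the same vehicle libraries, so their differences from vehicle are not independent of each other. The 10 mg/kg libraries likewise enter both this comparison and that with vehicle, so the signs of the members there are not independent either.

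**Figure D1:**
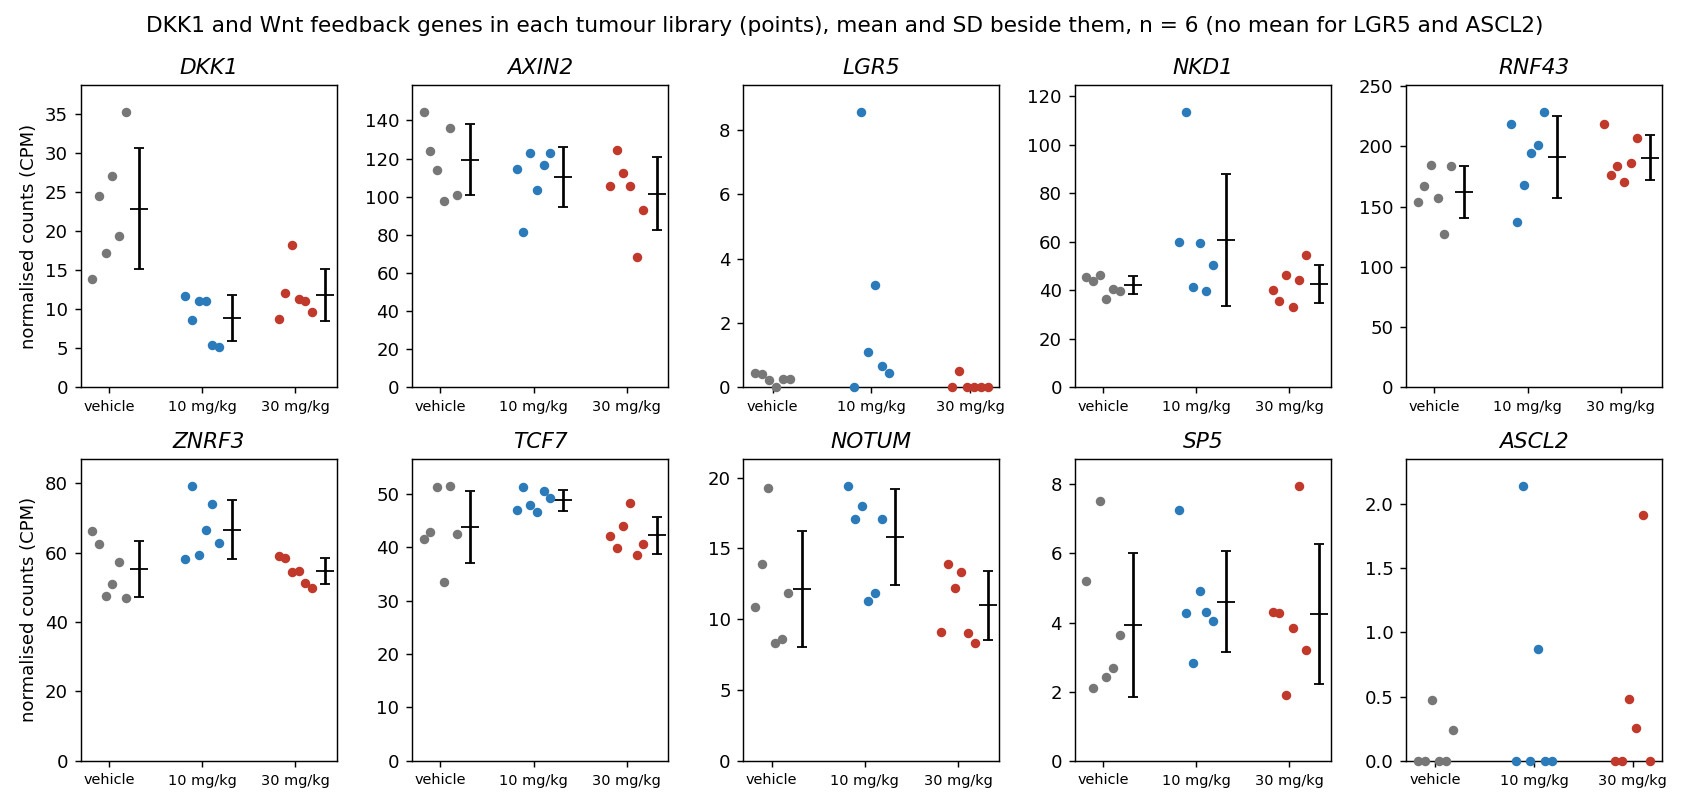
Normalised counts (CPM, vertical axis, each panel from 0) of the 10 genes in every library, by group, with the mean and SD over 6 libraries beside the points except for LGR5 and ASCL2. DKK1 lies at 5.12 to 11.6 CPM at 10 mg/kg, under all vehicle libraries, whereas either dose overlaps vehicle for every other gene.

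AXIN2, the scaffold of the destruction complex and a widely used readout of beta-catenin activity, did not pass at either dose. Its lowest, median and highest library stood at 97.8, 119 and 144 CPM with vehicle, 81.3, 116 and 123 CPM at 10 mg/kg, and 68.5, 106 and 124 CPM at 30 mg/kg. The 3 groups overlapped throughout, and the lowest library of each dosed group was 10 mg/kg replicate 2 and 30 mg/kg replicate 5. The log2 fold change was -0.09 at 10 mg/kg (95% interval -0.356 to 0.185, edgeR adjusted p = 0.868) and -0.23 at 30 mg/kg (95% interval -0.500 to 0.033, edgeR adjusted p = 0.732). Without 30 mg/kg replicate 5 the value at 30 mg/kg was -0.14. Neither interval reaches the fitted DKK1 change at the same dose.

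NKD1, an inducible antagonist that binds Dishevelled, stood at 36.4, 42.3 and 46.3 CPM with vehicle (lowest, median and highest library), at 39.9, 55.0 and 113 CPM at 10 mg/kg, and at 33.1, 42.3 and 54.7 CPM at 30 mg/kg. The 113 CPM belonged to 10 mg/kg replicate 2, and the next library of that group was at 60.0 CPM. The log2 fold change was 0.39 at 10 mg/kg (95% interval 0.033 to 0.756, edgeR adjusted p = 0.477) and 0.25 without replicate 2 (edgeR adjusted p = 0.559). At 30 mg/kg it was 0.01 (95% interval -0.341 to 0.363, edgeR adjusted p = 0.999).

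RNF43 and ZNRF3 encode related membrane ubiquitin ligases that remove Frizzled receptors from the cell surface. RNF43 stood at 128, 162 and 185 CPM with vehicle, 137, 198 and 228 CPM at 10 mg/kg, and 170, 185 and 219 CPM at 30 mg/kg. At 10 mg/kg the median exceeded the highest vehicle library. At 30 mg/kg the median was about level with that library, at 185.2 against 184.8 CPM. The groups overlapped at both doses. Its log2 fold change was 0.26 at 10 mg/kg (95% interval 0.014 to 0.502, edgeR adjusted p = 0.492) and 0.23 at 30 mg/kg (95% interval -0.009 to 0.474, edgeR adjusted p = 0.660). For ZNRF3 the lowest, median and highest libraries were 47.1, 54.2 and 66.2 CPM with vehicle, 58.2, 64.7 and 79.1 CPM at 10 mg/kg, and 49.8, 54.6 and 59.0 CPM at 30 mg/kg. The ZNRF3 log2 fold change was 0.24 at 10 mg/kg (95% interval 0.019 to 0.467, edgeR adjusted p = 0.480) and -0.02 at 30 mg/kg (95% interval -0.235 to 0.204, edgeR adjusted p = 0.999).

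At 10 mg/kg, 6 of the 8 tested members had a positive log2 fold change, and 4 had an unadjusted p under 0.05, namely DKK1, NKD1, RNF43 and ZNRF3, against 9.5% of all genes tested. The median log2 fold change of the 8 members was 0.24 at 10 mg/kg and -0.03 at 30 mg/kg, beside -0.01 and 0.00 over all genes tested. DKK1 apart, none of these members passed the threshold, so no rise can be stated for them.

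TCF7, a transcription factor that partners beta-catenin and is also its target, stood at 33.5, 42.6 and 51.5 CPM with vehicle, 46.6, 48.6 and 51.3 CPM at 10 mg/kg, and 38.6, 41.4 and 48.3 CPM at 30 mg/kg. The 10 mg/kg libraries sat close together in the upper part of the vehicle range. Its log2 fold change was 0.15 at 10 mg/kg (95% interval -0.075 to 0.373, edgeR adjusted p = 0.701) and -0.05 at 30 mg/kg (95% interval -0.271 to 0.167, edgeR adjusted p = 0.987). Counts per gene do not separate the TCF7 isoforms, some of which lack the part that binds beta-catenin.

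NOTUM, a secreted enzyme that strips the lipid from Wnt ligands, stood at 8.33, 11.4 and 19.3 CPM with vehicle, 11.3, 17.1 and 19.4 CPM at 10 mg/kg, and 8.31, 10.7 and 13.9 CPM at 30 mg/kg. All 3 groups overlapped. The log2 fold change was 0.37 at 10 mg/kg (95% interval -0.074 to 0.808, edgeR adjusted p = 0.616) and -0.15 at 30 mg/kg (95% interval -0.591 to 0.283, edgeR adjusted p = 0.958). Between the doses it was -0.52, the lowest among the members (95% interval -0.964 to -0.076, edgeR adjusted p = 0.969), with 8.31 to 13.9 CPM at 30 mg/kg against 11.3 to 19.4 CPM at 10 mg/kg.

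SP5 was the weakest member tested, with 2 to 36 counts a library. Its lowest, median and highest libraries were 2.11, 3.17 and 7.53 CPM with vehicle, 2.82, 4.29 and 7.24 CPM at 10 mg/kg, and 1.91, 4.07 and 7.94 CPM at 30 mg/kg. The log2 fold change of 0.24 at 10 mg/kg had a 95% interval of -0.513 to 0.983, and that of 0.11 at 30 mg/kg an interval of -0.620 to 0.833 (edgeR adjusted p = 0.869 and 0.995). With 1 library left out, the value at 10 mg/kg ran from 0.05 without 10 mg/kg replicate 1 to 0.54 without vehicle replicate 3.

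**Figure D2:**
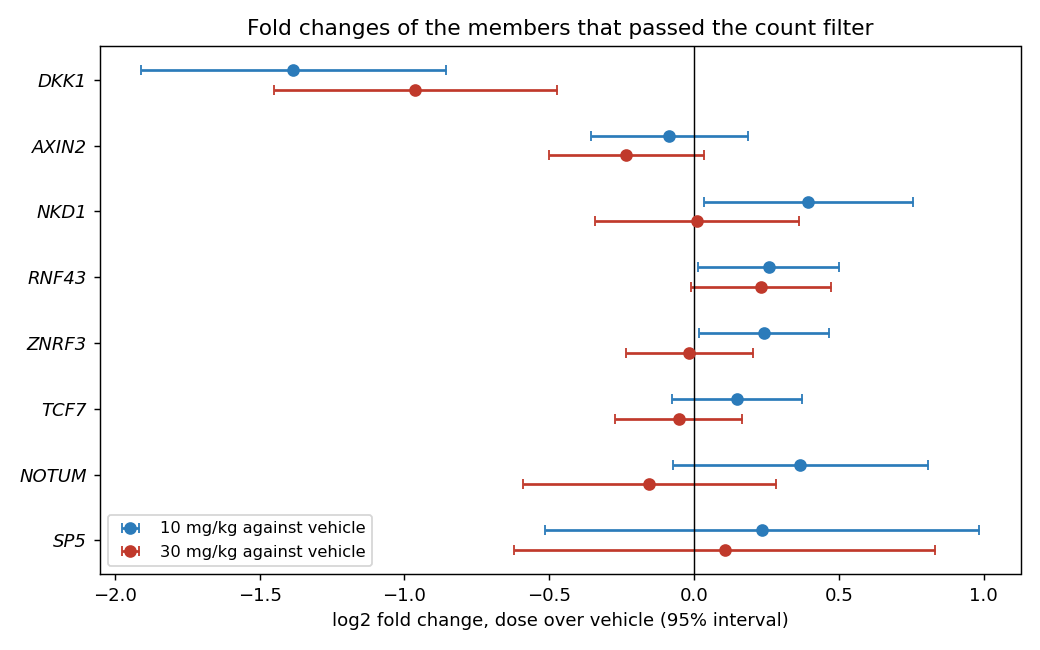
Log2 fold change (horizontal axis, dose over vehicle) of the 8 members that passed the count filter, with 95% intervals from the edgeR model for 10 mg/kg (upper of each pair) and 30 mg/kg (lower). The DKK1 intervals end at -0.858 and -0.474, and the other intervals all include 0 or lie just above it.

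The stem cell genes LGR5, the receptor for R-spondins, and ASCL2, a transcription factor of the crypt base, were near silent. LGR5 had 0 to 2 counts a library with vehicle, 0 to 11 at 10 mg/kg and 0 to 2 at 30 mg/kg, where 5 of 6 libraries had none. At 10 mg/kg the highest were 11 counts in replicate 4 and 4 counts in replicate 2, or 3.18 and 8.56 CPM. In the same group these libraries also held the most counts in 359 olfactory receptor genes under the filter, which summed to 410 CPM in replicate 4 and 1469 CPM in replicate 2, against 17.0 to 89.6 CPM in the remaining 4. ASCL2 had 0 to 2 counts with vehicle, 0 to 3 at 10 mg/kg and 0 to 7 at 30 mg/kg. Its 7 counts were in 30 mg/kg replicate 5, where the olfactory receptor genes summed to 273 CPM. The other 30 mg/kg libraries lay between 15.8 and 58.8 CPM. The part of this signal in the LGR5 and ASCL2 counts was not tested. A library with no count allows up to 3, or 0.359 to 0.776 CPM in the libraries where LGR5 or ASCL2 had none, except for 30 mg/kg replicate 5, where LGR5 had none and the limit was 0.822 CPM. With no filter, 23291 genes were tested, and the edgeR adjusted p for LGR5 was 0.254 at 10 mg/kg and 0.863 at 30 mg/kg, and for ASCL2 0.746 and 0.873.

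Set against transcript length, the order of the levels shows where DKK1 stood among its pathway. In TPM (transcript abundance relative to a fixed total, scaled for length by the authors), the vehicle means were 71.0 ± 7.66 for RNF43, 56.6 ± 10.1 for AXIN2, 27.6 ± 4.16 for TCF7, 25.9 ± 8.56 for DKK1 and 16.5 ± 2.82 for ZNRF3 (SD, n = 6 each). They were 11.1 ± 3.36 TPM for NOTUM, 9.59 ± 0.860 TPM for NKD1, 4.09 ± 2.05 TPM for SP5, 0.125 ± 0.207 TPM for ASCL2 and 0.120 ± 0.0748 TPM for LGR5 (SD, n = 6 each). Ranges of neighbours in that order overlapped except between AXIN2 and TCF7, NKD1 and SP5, and SP5 and ASCL2. DKK1 moved to rank 7 at 10 mg/kg, with a mean level of 9.39 ± 3.50 TPM, and to rank 5 at 30 mg/kg, with 13.2 ± 3.60 TPM (SD, n = 6 each), against rank 4 with vehicle. Its range overlapped those of its neighbours at each dose, NKD1 and SP5 at 10 mg/kg and ZNRF3 and NOTUM at 30 mg/kg.

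Because both genes are counted in the same library, the ratio of DKK1 to AXIN2 does not depend on how libraries were scaled to each other. DKK1 had 8.18 ± 2.99 counts per 100 AXIN2 counts at 10 mg/kg, against 20.2 ± 9.41 with vehicle (SD, n = 6 each). The libraries ran from 4.17 to 10.6 at 10 mg/kg and from 9.56 to 34.8 with vehicle, so the groups overlapped at vehicle replicate 1. The log2 ratio differed by -1.24 (two-sided exact permutation p = 0.00866 over 924 arrangements, 0.0260 adjusted over 3 comparisons). At 30 mg/kg the ratio was 11.9 ± 3.38, against 20.2 ± 9.41 with vehicle (SD, n = 6 each), a log2 difference of -0.67 (two-sided exact permutation p = 0.0693, adjusted 0.104). Over 20 alternatives the unadjusted exact permutation p for 30 mg/kg ran from 0.0260 to 0.139, and 19 of them missed the threshold as well. The lowest p was found without vehicle replicate 1, which had the lowest ratio of the vehicle libraries, 9.56. Between the doses the log2 ratio was 0.56 higher at 30 mg/kg (exact permutation p = 0.115, adjusted 0.115). Since DKK1 was chosen with its fall known, these p-values describe the ratio and are not independent evidence.

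**Figure D3:**
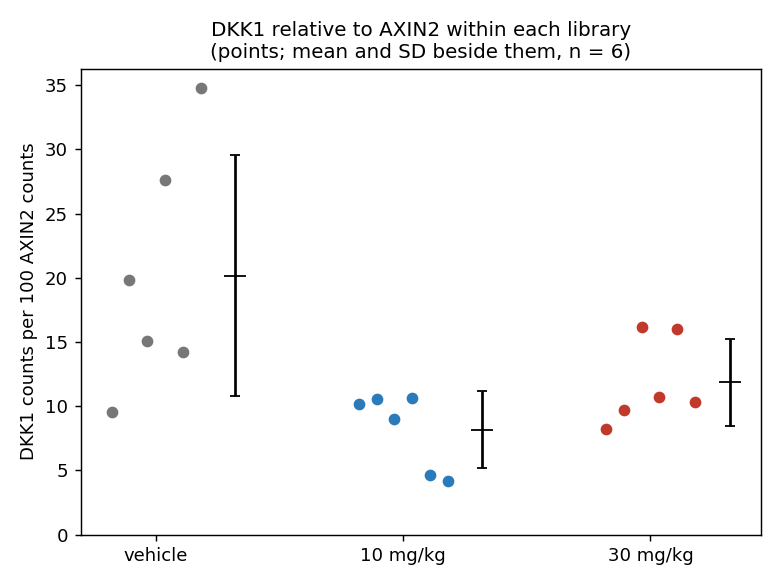
DKK1 counts per 100 AXIN2 counts (vertical axis, from 0) in each library by group, with the mean and SD over 6 libraries. Vehicle libraries spread from 9.56 to 34.8, 10 mg/kg libraries from 4.17 to 10.6, and 30 mg/kg libraries from 8.27 to 16.2.

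Pearson r between members, over all pairs of the 7 at 5 CPM or more, ran from -0.588 to 0.543. Over the 17 libraries with at least 1000000 counts, all groups pooled, Pearson r of log2 CPM was -0.59 for DKK1 with RNF43 and -0.55 for DKK1 with ZNRF3. After removal of each group's mean these values were -0.15 and -0.44. AXIN2 had r of 0.51 with ZNRF3 and 0.46 with TCF7 pooled, and 0.55 and 0.42 within groups. In each library both genes of a pair share its depth and scaling. These r values are descriptions, and no test was made of them.

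Among 12554 genes at 5 CPM or more, the pooled pattern of DKK1 over those 17 libraries was most like that of LOXL4 (r = 0.83), a lysyl oxidase family enzyme, SHROOM3 (0.82), an actin-binding protein of epithelial shape, and PLD6 (0.81). MACROH2A2 (0.75), a histone variant, and ASIC1 (0.74), an acid-sensing ion channel, came next. After removal of each group's mean the r was 0.66 for LOXL4, 0.55 for SHROOM3, 0.83 for PLD6, 0.77 for MACROH2A2 and 0.43 for ASIC1, so the order of these genes differs within groups. None of these 5 was called at 10 mg/kg or 30 mg/kg (lowest edgeR adjusted p = 0.308). AXIN2 was most like PRICKLE3 (0.84), RNF214 (0.82) and ZNF436 (0.80), none of which was called.

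The rest of the pathway was described by 9 lists of textbook genes, 109 in all, of which 78 passed the filter. None of the 78 was called at either dose or between the doses in edgeR. An unadjusted p under 0.05 was found for 5 of them at 10 mg/kg and 7 at 30 mg/kg, beside 9.5% and 7.9% of all genes tested. The median log2 fold change over the 78 was 0.02 at 10 mg/kg and 0.00 at 30 mg/kg. In 10 mg/kg replicate 2, 1 count equalled 2.14 CPM, so the ends of a listed gene's range at 10 mg/kg may rest on that library. Fold changes of the listed genes include replicate 2 and are not given without it.

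The receptors through which DKK1 acts were all expressed, and 0 of 5 were called. LRP5 averaged 173 CPM at 10 mg/kg, with libraries from 120 to 208 CPM, and 179 CPM with vehicle, with libraries from 160 to 213 CPM. LRP6 averaged 138 CPM at 10 mg/kg (101 to 150 CPM), against 144 CPM with vehicle (137 to 152 CPM). Their log2 fold changes at 10 mg/kg were -0.03 and -0.06 (edgeR adjusted p = 0.967 and 0.892). KREMEN1 and KREMEN2, co-receptors of DKK1, and CKAP4, another DKK1 receptor, had log2 fold changes of 0.13, 0.20 and 0.21 at 10 mg/kg (edgeR adjusted p = 0.729, 0.810 and 0.550).

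Of 14 other secreted or membrane antagonists, 3 passed the filter. DKK4, a relative of DKK1, ranged from 0 to 12.5 CPM in the 10 mg/kg group and from 5.02 to 9.59 CPM in the 30 mg/kg group, against 3.17 to 7.76 CPM with vehicle, with log2 fold changes of 0.34 and 0.29 (edgeR adjusted p = 0.777 and 0.948). TPBG, a membrane inhibitor of Wnt signalling, had log2 fold changes of 0.27 and 0.18 (edgeR adjusted p = 0.471 and 0.820). DKK2 and DKK3 did not pass the filter.

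Among ligands and their secretion factors, 14 of 21 passed the filter and 0 were called. WNT7B, one of the most abundant, ranged from 17.9 to 32.5 CPM with vehicle. In the 10 mg/kg group it ranged from 22.6 to 64.2 CPM, with replicate 2 the highest. The range in the 30 mg/kg group was 30.7 to 39.6 CPM. The WNT7B log2 fold changes of 0.38 and 0.42 did not pass (edgeR adjusted p = 0.520 and 0.507). WLS, which carries Wnt ligands to the surface, was at -0.03 and -0.06 (edgeR adjusted p = 0.976 and 0.987). Of 6 R-spondins and their receptors, RSPO4 and LGR4 passed the filter, with log2 fold changes of 0.48 and 0.13 at 10 mg/kg (edgeR adjusted p = 0.789 and 0.859). The values at 30 mg/kg were -0.54 and 0.12 (edgeR adjusted p = 0.922 and 0.972), and between the doses RSPO4 was at -1.02 (edgeR adjusted p = 0.969).

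Of 14 Frizzled and co-receptor genes, 11 were tested and 0 called, PTK7 and FZD6 being the most abundant by CPM, with log2 fold changes of -0.11 each at 10 mg/kg (edgeR adjusted p = 0.788 and 0.828). All 14 genes of the relay and destruction complex were tested and 0 called. CTNNB1, beta-catenin itself, ranged from 158 to 283 CPM in the 10 mg/kg group and from 237 to 263 CPM in the 30 mg/kg group, against 229 to 267 CPM with vehicle. Its log2 fold changes were -0.04 and 0.04 (edgeR adjusted p = 0.947 and 0.993), and those of the kinase gene CSNK1A1 were -0.03 and 0.10 (0.979 and 0.973). Of 13 nuclear factors 10 were tested, led by TCF7L2 and BCL9L, whose log2 fold changes at 10 mg/kg were -0.34 and -0.09 (edgeR adjusted p = 0.681 and 0.849). TCF7L2 ranged from 79.1 to 475 CPM at 10 mg/kg, with replicate 2 the lowest, against 412 to 504 CPM with vehicle.

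Other beta-catenin targets gave 0 calls among 12 tested. CD44, an adhesion receptor, and CCND1, cyclin D1, were the most abundant by CPM, with log2 fold changes of 0.10 and -0.20 at 10 mg/kg (edgeR adjusted p = 0.930 and 0.609). MYC and MMP7 were singled out after their values were seen. MYC had means of 201 CPM in the 10 mg/kg group and 212 CPM in the 30 mg/kg group, against 279 CPM with vehicle, and log2 fold changes of -0.47 and -0.40 that did not pass (edgeR adjusted p = 0.0856 and 0.165). MMP7, a matrix protease, had the highest of the list, 0.93 and 0.66 (edgeR adjusted p = 0.400 and 0.707). Of 10 intestinal stem cell genes 7 were tested and 0 called, CDCA7 and MEX3A being the most abundant. Their log2 fold changes were -0.30 and -0.13 at 10 mg/kg (edgeR adjusted p = 0.593 and 0.840). At 30 mg/kg they were -0.38 and -0.18 (edgeR adjusted p = 0.525 and 0.920). The 7 tested genes ran from -0.30 to -0.03 at 10 mg/kg and from -0.38 to 0.23 at 30 mg/kg, with medians of -0.17 and -0.18.

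**Figure D4:**
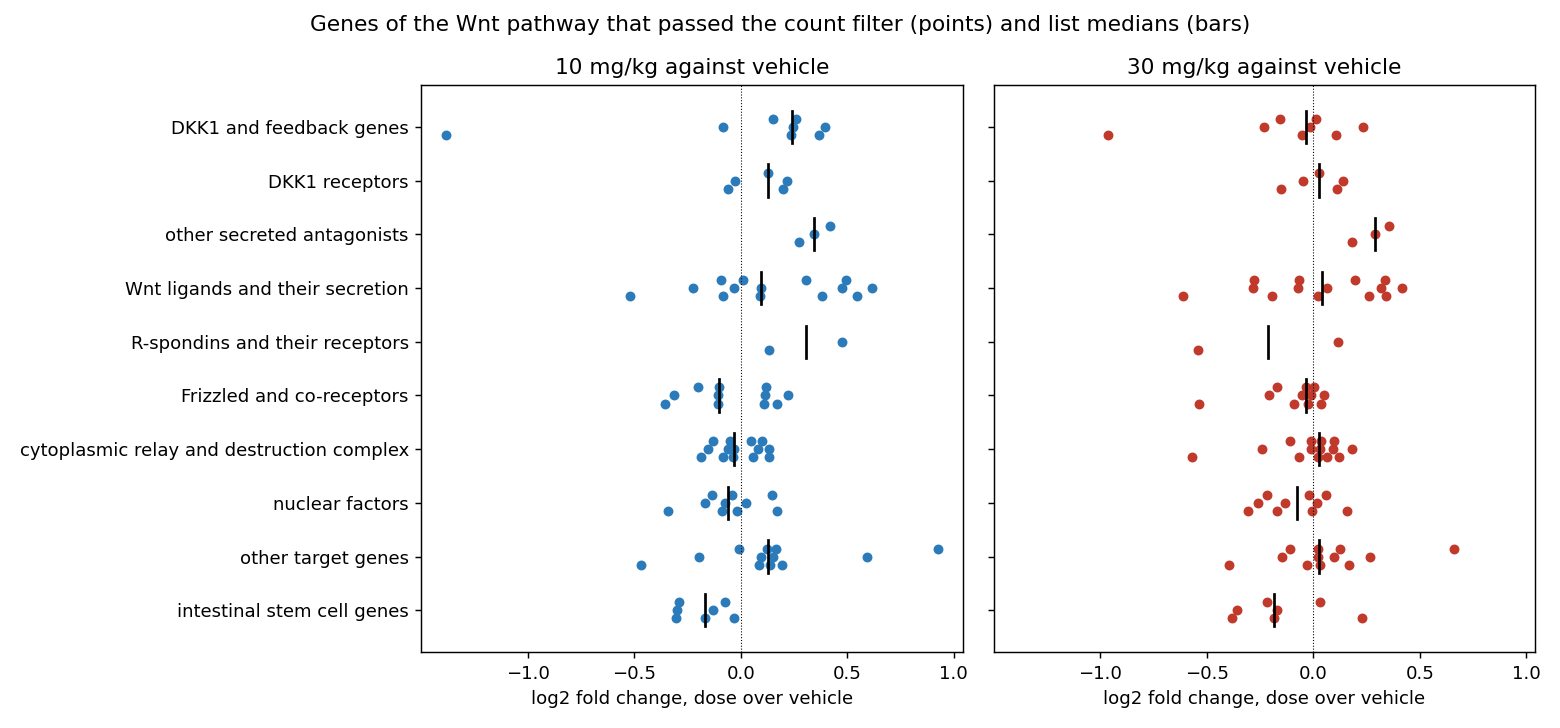
Log2 fold change (horizontal axis, dose over vehicle) of every tested gene of the 9 pathway lists and of the 8 tested members, with a bar at each list's median, for 10 mg/kg (left) and 30 mg/kg (right). DKK1, at -1.38 and -0.96, is the leftmost point in both panels.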

How the data were processed

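RNA-seq of 18 xenograft tumours was analysed from 1 gene table per library. Per the labels, libraries were made from 5 ng of total RNA with a stranded kit for pico input. STAR 2.4.2a and the builds hg19 and mm10 are named in the submitters' processing notes, with no role. The quantifier, the annotation and the split of reads between human and mouse are not stated in those notes or the labels. Per the file headers, the deposited values are expected counts (estimated read numbers, unscaled) and TPM, scaled for length by the authors. Entrez IDs gave 25220 genes their symbol, accessions gave 26, and 97 stayed without one.

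Expected counts were rounded to whole numbers, filtered with filterByExpr on the 3 groups, scaled by TMM and fitted over all 18 libraries with the robust quasi-likelihood test of edgeR 4.0.16 in R 4.3.3. Adjusted p is Benjamini-Hochberg over all 14074 genes, with a threshold of 0.05. A fold change SE is the absolute log2 fold change over the root of the F statistic. The log2 DKK1 to AXIN2 ratio (0.5 added to each count) was tested by two-sided exact permutation with scipy 1.17.1, 0.00216 being the smallest p it allows. Alternatives used DESeq2 1.42.0, limma 3.58.1 (voom, and trend on log2(TPM + 1)), other scalings and filters, the groups compared alone, a replicate block, and each library left out. The pair 10 mg/kg replicates 2 and 4 left out, and all settings of the ratio, were added after the data were seen.

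The members, lists and tests were chosen with earlier results of these data known. Genes outside the members were named if they passed the threshold, if they were among the 2 highest of a list by mean CPM, or by likeness, the highest Pearson r of log2 CPM (prior count 2) with DKK1 (5 genes) or AXIN2 (3 genes). PTDSS1 and PTDSS2 were given by range, and cell type markers as a check of the tissue. KREMEN1, KREMEN2, CKAP4, MYC, MMP7, DKK2 and DKK3 were named outside that rule.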

Additional observations from a re-analysis of the deposited data

Results flagged for a closer look

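Within groups of 6, the highest and lowest library of each member and of the DKK1 to AXIN2 ratio were compared with the rest, 33 groups of values in all. In 5 of them 1 library stood apart. Chance gives this in about 1 of 20 groups of continuous values, a rate that does not hold for LGR5 and ASCL2, whose counts are few and often 0. DKK1 was highest in 30 mg/kg replicate 3, at 18.2 CPM, and the next library of that group stood at 12.1 CPM. NKD1 was highest in 10 mg/kg replicate 2, at 113 CPM, and the next stood at 60.0 CPM. LGR5 was highest in 10 mg/kg replicate 2, at 8.56 CPM from 4 counts, and in 30 mg/kg replicate 2, at 0.504 CPM from 2 counts. ASCL2 was highest in 30 mg/kg replicate 5, at 1.92 CPM from 7 counts.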

How the results depend on the processing

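At 10 mg/kg DKK1 was the 1 member called in 28 of 29 alternatives and under each library left out (1 to 1), with log2 fold changes of -1.49 to -1.21. With the replicate block no member was called (count 0, DKK1 -1.37, edgeR adjusted p = 0.0553), and the call count over all genes was 24 against 66. The labels do not say whether the replicate numbers pair the libraries. Same-numbered libraries' deviations correlated between -0.281 and 0.224, and only 30 mg/kg replicates 3 and 4 correlated best with their own number in vehicle. Such correlations do not settle whether the numbers pair them. At 30 mg/kg no member was called in the main fit or in 22 of 29 alternatives. DKK1 was the 1 member called with DESeq2, with limma-voom, with the 2 groups alone, and with 10 mg/kg replicates 2 and 4 left out. Leaving out 1 library gave 0 to 1. The DKK1 to AXIN2 log2 ratio ranged over left-out libraries from -1.43 to -1.05 at 10 mg/kg, from -0.86 to -0.49 at 30 mg/kg and from 0.39 to 0.68 between the doses.

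Over left-out libraries AXIN2 ranged from -0.13 to -0.014 at 10 mg/kg and from -0.29 to -0.14 at 30 mg/kg. Members other than DKK1 gave 606 alternative values, of which 26 changed sign and none passed the threshold. At 30 mg/kg against vehicle NKD1 (0.01) was -0.017 with library totals alone, -0.0023 with no filter, -0.0022 with limma-voom, -0.022 with limma-trend, -0.0013 without 10 mg/kg replicate 2 and 30 mg/kg replicate 5 together, and -0.076 to 0.075 over left-out libraries. With that pair left out ZNRF3 was 0.0019 and SP5 -0.14. Over left-out libraries ZNRF3 ranged from -0.054 to 0.046, TCF7 from -0.12 to 0.0043, NOTUM from -0.24 to 0.031 and SP5 from -0.15 to 0.40. Between the doses RNF43 was 0.026 with no filter and 0.084 with limma-trend, and ranged from -0.086 to 0.019 over left-out libraries, and SP5 from -0.39 to 0.063. The cause of these changes was not tested.

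Calls over all genes at 10 mg/kg numbered 66, against 32 with no filter, 158 with DESeq2, 12 with limma-trend, 36 with the 2 groups alone, 135 without 10 mg/kg replicate 2 and 30 mg/kg replicate 5, and 31 to 121 over left-out libraries. At 30 mg/kg they numbered 87, against 57, 179, 23, 191 and 212 in that order, 188 without 10 mg/kg replicates 2 and 4, and 61 to 182. On the TPM scale the median log2 fold change of all genes at 10 mg/kg was -0.116. Depth limits LGR5, ASCL2 and SP5 most, and every member in 10 mg/kg replicate 2.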
